A study of Homo sapiens with 12 samples.

Results

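Cytochrome P450 genes, 55 of the 62710 genes in the tables, were described across 3 human liver cancer lines with and without lactate. Members were the genes whose symbol is CYP followed by a family number, a subfamily letter and a gene number, except CYP51A1, an enzyme of cholesterol synthesis. PLC/PRF/5, HLF and SNU475 are established lines from hepatocellular carcinoma, and each line is a single cell population. Each line had 2 libraries of cells given lactic acid at 20 mM for 24 h, called lactate here, and 2 libraries of untreated control cells, 12 in all. No group carries a genetic alteration made for the study, and nothing in the labels tells if paired libraries are separate cultures; p-values therefore reflect only how much these libraries vary, possibly for technical reasons. The comparisons were of the untreated lines with each other and of lactate with control in each line; the study's title concerns lactate, histone lactylation and glycolysis, not drug metabolism.

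Cytochrome P450 enzymes bind haem and insert an oxygen atom into their substrates, taking electrons from POR in the endoplasmic reticulum or from ferredoxin in mitochondria. Families CYP1 to CYP3 oxidise drugs and other foreign compounds, CYP4 enzymes act on fatty acids and eicosanoids, and further families make or break down bile acids, steroid hormones, retinoic acid and vitamin D. Hepatocytes of adult liver are the main site of many of these enzymes, and receptors that sense ligands, such as AHR, the vitamin D receptor and the retinoic acid receptors, switch individual genes on.

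Library totals were 16533437 to 22187849 estimated counts. Mitochondrially encoded transcripts took 3.39% to 15.05% of them, with 9.52% and 3.39% in the HLF controls and 15.05% against 8% in the SNU475 controls numbered 2 and 1. Levels below are TPM, a share of the library's transcripts corrected for length, and fold changes are from a fit to counts, which do not carry the effective length that divides TPM. Of 10 hepatocyte markers, 9 had a mean of at least 1 TPM in untreated PLC/PRF/5, against 2 in HLF and 2 in SNU475, where APOA1, APOB and TTR were at 0 in the controls. HP was at 0 in the controls of all 3 lines. The 5 stellate cell markers summed to 783 to 1016 TPM in the SNU475 controls, against 1.46 to 1.89 TPM in those of PLC/PRF/5 and 18.4 to 22.9 TPM in those of HLF. The 4 immune markers, of which CD68 gave most, summed to 25 to 28.4, 141 to 162 and 40.3 to 112 TPM in the controls of PLC/PRF/5, HLF and SNU475, and CD3E was at 0 in all 6 controls. Each line being a single cell population, these are levels of marker transcripts and not counts of cell types. The part of these markers in the results below was not tested.

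The lines used few of these genes. Of the 55 members, 17 (30.9%) had a mean of at least 1 TPM in untreated PLC/PRF/5, 7 (12.7%) in untreated HLF and 14 (25.5%) in untreated SNU475, against 59.6%, 57.4% and 60.6% of 19855 protein-coding genes. Those at 1 TPM or more in both control libraries numbered 16 in PLC/PRF/5, 7 in HLF and 10 in SNU475. With lactate, 19, 7 and 11 members passed by their mean in PLC/PRF/5, HLF and SNU475. The 5 genes that passed in all 3 untreated lines were CYP2R1, CYP20A1, CYP27A1, CYP2S1 and CYP2U1. Across the 6 groups 22 members passed somewhere and 33 did not. Just inside the limit, CYP19A1 averaged 1.12 TPM in untreated PLC/PRF/5 and CYP26A1 1.12 TPM in untreated SNU475. Just outside it, CYP4V2 averaged 0.97 TPM in untreated PLC/PRF/5 and 0.905 TPM in untreated SNU475, and CYP2E1 0.91 TPM in untreated HLF.

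The classic liver enzymes were among those not found. No count fell on 14 members in any of the 12 libraries, among them CYP7A1, the rate-limiting enzyme of bile acid synthesis, CYP8B1, which directs it to cholic acid, CYP2A6, which oxidises nicotine, CYP4A11, a fatty acid hydroxylase, and the adrenal enzymes CYP11B1 and CYP11B2. A count of 0 allows up to 3 counts per library, a floor of 0.135 to 0.181 CPM (the count scaled to the library total) at these depths; intervals and floors here cover counting error only. A further 14 members had counts but too few to test. Among them, CYP4F2 reached 0.62 TPM at most, in PLC/PRF/5 lactate library 2, and CYP11A1, which starts steroid hormone synthesis, 0.54 TPM at most. CYP3A4, which handles the widest range of drugs in adult liver, reached 0.22 TPM at most, in HLF lactate library 1, and CYP1A2 reached 0.23 TPM at most, in SNU475 lactate library 1. The remaining 27 members passed the count filter and were tested.

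The summed level of the family differed between lines and rested on few genes. The 55 members summed to 965 ± 107 TPM in PLC/PRF/5 with lactate and 520 ± 12.6 TPM in its controls (SD, n = 2 each), to 185 ± 52.8 and 155 ± 1.02 TPM in HLF, and to 143 ± 7.83 and 137 ± 19.2 TPM in SNU475. CYP24A1 made up 69.1% of the sum in PLC/PRF/5 with lactate and 54.9% in its controls. In HLF, CYP1B1 made up 70.8% with lactate and 60.6% in controls. No gene dominated in SNU475, where the leading gene, CYP27A1, held 24.2% with lactate and CYP4F11 held 22.8% in controls.

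**Figure D1:**
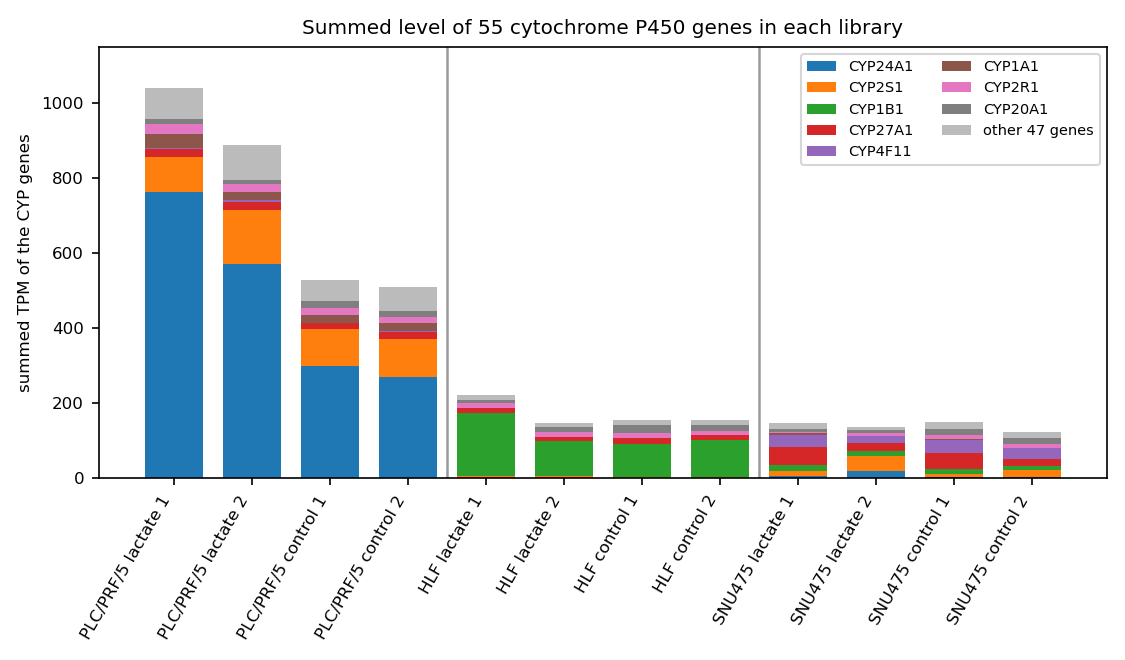
Summed TPM of the 55 cytochrome P450 genes in each of the 12 libraries, stacked by gene, with lactate libraries left of controls in each line. The bars of PLC/PRF/5 stand at 889 to 1041 TPM with lactate and 511 to 529 TPM in controls, and most of the height is CYP24A1.

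**Figure D2:**
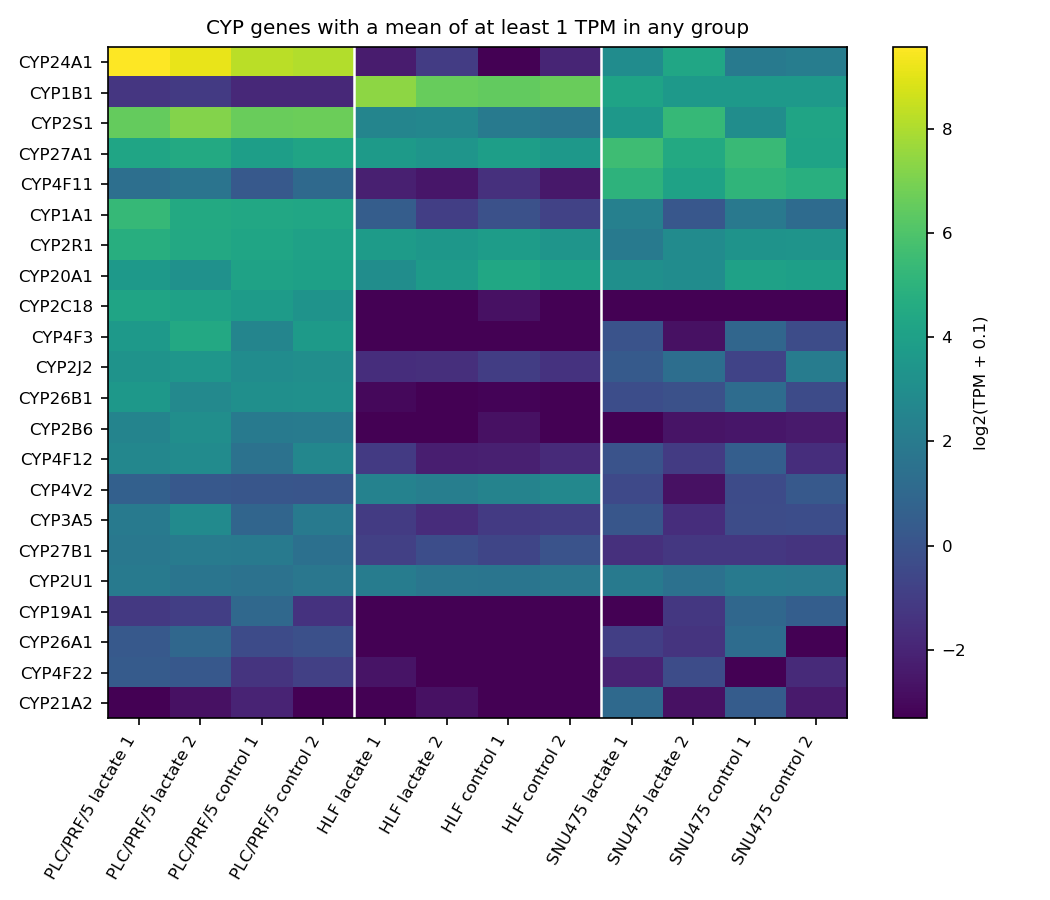
Level of the 22 genes with a mean of at least 1 TPM in any group, as log2(TPM + 0.1), in rows ordered by their highest group mean and columns of single libraries. Rows such as CYP2C18 and CYP2B6 are bright only in PLC/PRF/5, CYP1B1 and CYP4V2 are brightest in HLF and CYP4F11 in SNU475.

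Between the untreated lines, 15 to 18 of the 27 tested members were called in each comparison. Against HLF, untreated PLC/PRF/5 had 16 members higher and 2 lower (66.7% of the 27) at an adjusted p under 0.05 (edgeR quasi-likelihood test, Benjamini-Hochberg over 18355 genes), where 43% of all tested genes were called, 21.7% higher and 21.3% lower. Against SNU475, untreated PLC/PRF/5 had 11 higher and 4 lower (55.6%), where 48.7% of all tested genes were called, 22.4% higher and 26.3% lower. Untreated HLF had 3 higher and 12 lower than SNU475 (55.6%), where 39% of all tested genes were called, 17.2% higher and 21.9% lower. A member low in most lines was tested only because it was high in some group, so these counts describe the tested members and not the family. Without PLC/PRF/5 control 2 the second comparison called 9 members (33.3%), beside 33.5% of all genes. The last called 9 (33.3%) without HLF control 1, beside 29.1% of all genes, and 8 (29.6%) without HLF control 2, beside 28.3%, so in these fits the members' share lay near that of all genes. With all 12 libraries, DESeq2 called 13 members (48.1%) for PLC/PRF/5 against SNU475, beside 49% of all genes. For HLF against SNU475, limma-voom called 11 (40.7%), beside 41.1%. The members' share stayed higher for PLC/PRF/5 against HLF, at 63% beside 44.2% in DESeq2 and 66.7% beside 44.8% in limma-voom. It was also higher for HLF against SNU475 in DESeq2 (55.6% beside 40.4%) and PLC/PRF/5 against SNU475 in limma-voom (55.6% beside 50.7%). The 3 comparisons share the control libraries.

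CYP24A1, the mitochondrial enzyme that breaks down active vitamin D and a target of the vitamin D receptor, had the highest level of any member. It had 299 and 272 TPM in untreated PLC/PRF/5, 0 and 0.15 TPM in HLF and 3.77 and 4.4 TPM in SNU475. The 3 pairs of controls did not overlap, and the order of the lines was the same in every control library. The fold change on the log2 scale was 11.47 ± 0.81 for PLC/PRF/5 against HLF (SE; adjusted p = 9.25e-07), where HLF had 5 counts in all, 5.59 ± 0.56 for PLC/PRF/5 against SNU475 (adjusted p = 1.28e-05) and -5.88 ± 0.82 for HLF against SNU475 (adjusted p = 0.000203).

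The 2 enzymes that activate vitamin D were at lower levels. CYP2R1, the liver 25-hydroxylase, had 19.4 and 16.5 TPM in PLC/PRF/5, 14.0 and 10.5 TPM in HLF and 9.86 and 10 TPM in SNU475. It was called higher in PLC/PRF/5 than in SNU475 (log2 0.70 ± 0.27, adjusted p = 0.0488) and in HLF than in SNU475 (0.86 ± 0.27, adjusted p = 0.0256), but with effective-length offsets these values were 0.35 (adjusted p = 0.533) and 0.08 (adjusted p = 0.911), and the first call held under 4 of 20 alternatives, the second under 13. Leaving out any single library but SNU475 lactate 1 or 2 ended the first (adjusted p from 0.0534 to 0.175), and leaving out HLF control 1, SNU475 control 1 or SNU475 control 2 ended the second (adjusted p = 0.151, 0.0545 and 0.123). CYP27B1, which makes the active hormone, had 3.75 and 2.58 TPM in PLC/PRF/5, 0.55 and 0.88 TPM in HLF and 0.33 and 0.29 TPM in SNU475. It was higher in PLC/PRF/5 by 1.62 ± 0.48 against HLF (adjusted p = 0.0183) and by 2.18 ± 0.50 against SNU475 (adjusted p = 0.00406) on the log2 scale. The difference from HLF was lost without HLF control 1 (adjusted p = 0.0714), HLF control 2 (adjusted p = 0.077) or PLC/PRF/5 control 2 (adjusted p = 0.116). The receptor gene VDR had 3.44 and 3.74 TPM in PLC/PRF/5, 0.81 and 1.3 TPM in HLF and 2 and 2.35 TPM in SNU475.

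The retinoic acid hydroxylases were found mainly outside HLF. CYP26B1 had 8.43 and 8.84 TPM in PLC/PRF/5, 0.01 and 0 TPM in HLF and 2.29 and 0.68 TPM in SNU475. PLC/PRF/5 had 589 counts against 1 in HLF, a ratio of 609 with a 95% counting interval of 109 to 24085 (adjusted p = 2.34e-05), and SNU475 had 190 counts against that 1, a ratio of 211 with an interval of 37.5 to 8389 (adjusted p = 0.000168). The difference between PLC/PRF/5 and SNU475, 1.55 ± 0.56 on the log2 scale (adjusted p = 0.0377), held under 13 of 20 alternatives and was lost without SNU475 control 2 (0.91, adjusted p = 0.184), without PLC/PRF/5 control 1 (1.31, adjusted p = 0.169), control 2 (1.75, adjusted p = 0.0727), lactate 1 (1.55, adjusted p = 0.0542) or lactate 2 (1.55, adjusted p = 0.0502). It was also lost without both SNU475 libraries numbered 2 (adjusted p = 0.0567) and with only the libraries compared (adjusted p = 0.06). CYP26A1 had 0.67 and 0.8 TPM in PLC/PRF/5, no counts in HLF, and 2.24 and 0 TPM in SNU475, so that its call in HLF against SNU475 (adjusted p = 0.0317) rested on the 34 counts of SNU475 control 1, and it was lost without HLF control 1 (adjusted p = 0.121) or 2 (adjusted p = 0.119) and in limma-voom (adjusted p = 0.148). PLC/PRF/5 was at least 10.7-fold higher in CYP26A1 than HLF (adjusted p = 0.0348), which held under 14 of 20 alternatives and was lost without any single control of these lines or PLC/PRF/5 lactate 2 (adjusted p from 0.0504 to 0.132) and with effective-length offsets (adjusted p = 0.0547). CYP26C1 had no counts anywhere, and CYP27C1, which desaturates vitamin A in skin, stayed between 0.09 and 0.44 TPM in every library.

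Among genes controlled by AHR, a receptor for dioxins and related ligands, CYP1A1 and CYP1B1 had opposite orders across the lines. Both oxidise polycyclic aromatic hydrocarbons, and CYP1B1 is known mostly from tissues other than liver. CYP1A1 had 21 and 19.8 TPM in untreated PLC/PRF/5, 0.83 and 0.49 TPM in HLF and 3.67 and 2.16 TPM in SNU475. CYP1B1 had 0.18 and 0.18 TPM in PLC/PRF/5, 88.1 and 100.2 TPM in HLF and 12.4 and 12 TPM in SNU475. The highest line for CYP1A1 was the lowest for CYP1B1, with no overlap between lines for either gene.

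On the log2 scale CYP1A1 was higher in PLC/PRF/5 by 4.44 ± 0.63 against HLF (adjusted p = 0.00018) and by 2.22 ± 0.56 against SNU475 (adjusted p = 0.00649). It was lower in HLF than in SNU475, at -2.22 ± 0.61 (adjusted p = 0.0136), a call lost without HLF control 2 (-1.77, adjusted p = 0.111) or SNU475 control 1 (-2.02, adjusted p = 0.0506). CYP1B1 was lower in PLC/PRF/5, at -9.30 ± 0.40 against HLF (adjusted p = 3.29e-08) and -6.59 ± 0.37 against SNU475 (adjusted p = 1.93e-07), and higher in HLF than in SNU475 by 2.71 ± 0.27 (adjusted p = 2.12e-05). These 3 calls of CYP1B1 held under all 20 alternatives. AHR had 67.3 and 64.9 TPM in PLC/PRF/5, 11 and 26 TPM in HLF and 7.04 and 8.27 TPM in SNU475, and AHRR, which represses AHR, had 0.21 and 0.76, 2.13 and 3.35, and 3.72 and 2.66 TPM in PLC/PRF/5, HLF and SNU475. NQO1, another AHR target, was highest in SNU475 instead, with 763 and 842 TPM in PLC/PRF/5, 311 and 273 TPM in HLF and 3597 and 2249 TPM in SNU475.

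The 250 bases before the start of CYP1A1 are shown because its promoter is a textbook AHR target, from RefSeq on GRCh38.p14 (chr15:74725529-74725778, minus strand), with GCGTG, the core of the dioxin response element, and TATAA, the core of the TATA box, in capitals. RefSeq promoter windows were at hand for 38 members, and CYP1B1, CYP24A1 and 15 others had none.
CYP1A1: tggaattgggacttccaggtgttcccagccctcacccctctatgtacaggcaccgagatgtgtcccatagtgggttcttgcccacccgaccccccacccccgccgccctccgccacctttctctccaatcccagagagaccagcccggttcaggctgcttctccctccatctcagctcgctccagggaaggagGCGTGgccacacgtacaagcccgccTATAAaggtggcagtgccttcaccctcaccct
On either strand GCGTG was in 32.2% of all 35116 windows of these 250 bases and in 10 of the 51 windows of the 38 members (19.6%). TATAA was in 18.9% of all windows and in 23 of the 51 (45.1%). A match is a description of the letters and not a site.

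Of 5 drug-oxidising members that passed 1 TPM in some group, 4 passed in untreated PLC/PRF/5, 1 in HLF and 2 in SNU475. CYP2C18, a CYP2C enzyme better known from skin and gut, had 13.3 and 9.66 TPM in untreated PLC/PRF/5, 0.05 and 0 TPM in HLF and no counts in SNU475. PLC/PRF/5 had 551 counts against 2 in HLF, a ratio of 285 with a 95% counting interval of 78.5 to 2357 (adjusted p = 3.04e-05), and was at least 171-fold higher than SNU475 at a floor of 3 counts over the group (adjusted p = 2.43e-05). CYP2B6, which oxidises bupropion and efavirenz, had 3.85 and 4.03 TPM in PLC/PRF/5, 0.05 and 0 TPM in HLF and 0.07 and 0.09 TPM in SNU475. Its 207 counts in PLC/PRF/5 stood against 3 in HLF, a ratio of 71.3 with an interval of 24.1 to 349 (adjusted p = 0.000429), and the log2 fold change against SNU475 was 5.20 ± 0.87 (adjusted p = 0.000676).

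CYP3A5, a drug-oxidising relative of CYP3A4, had 1.72 and 3.72 TPM in PLC/PRF/5, 0.35 and 0.41 TPM in HLF and 0.7 and 0.74 TPM in SNU475. It was higher in PLC/PRF/5 than in HLF by 1.86 ± 0.52 on the log2 scale (adjusted p = 0.0128), a call lost without HLF control 1 (adjusted p = 0.058), HLF control 2 (adjusted p = 0.0731) or PLC/PRF/5 control 2 (adjusted p = 0.0938). CYP3A7, the form of foetal liver, had 0.36 and 0.61 TPM in PLC/PRF/5 and no counts in HLF or SNU475. PLC/PRF/5 was at least 7.92-fold higher than HLF (adjusted p = 0.0136), lost without HLF control 1 (adjusted p = 0.0567) or PLC/PRF/5 control 2 (adjusted p = 0.0584), and at least 7.13-fold higher than SNU475 (adjusted p = 0.0138), lost without PLC/PRF/5 control 2 (adjusted p = 0.0581). DESeq2 called neither (adjusted p = 0.084 and 0.0887). The deposited expected counts of CYP3A4, CYP3A5, CYP3A7 and CYP3A43 were whole in all 12 libraries and those of CYP2C18 in 10 of 12. CYP2E1, which oxidises ethanol, was a member with its highest untreated level in HLF, 0.48 and 1.34 TPM, against 0.12 and 0.23 TPM in PLC/PRF/5 and 0 and 0.19 TPM in SNU475, and neither difference passed the test (adjusted p = 0.099 and 0.0871).

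CYP2S1, an enzyme of epithelia with a poorly defined substrate, had 99.8 and 101 TPM in untreated PLC/PRF/5, 3.90 and 3.30 TPM in HLF and 8.04 and 18.2 TPM in SNU475. The lines did not overlap, and PLC/PRF/5 was higher by 4.41 ± 0.71 against HLF (adjusted p = 0.000465) and by 2.26 ± 0.64 against SNU475 (adjusted p = 0.013) on the log2 scale, a call against SNU475 that was lost without SNU475 control 1 (1.70, adjusted p = 0.0845). HLF was lower than SNU475 at -2.15 ± 0.66 (adjusted p = 0.0236), a call lost without HLF control 1 (adjusted p = 0.0627), HLF control 2 (adjusted p = 0.154) or SNU475 control 2 (-1.26, adjusted p = 0.2), and in limma-voom (adjusted p = 0.0796).

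**Figure D3:**
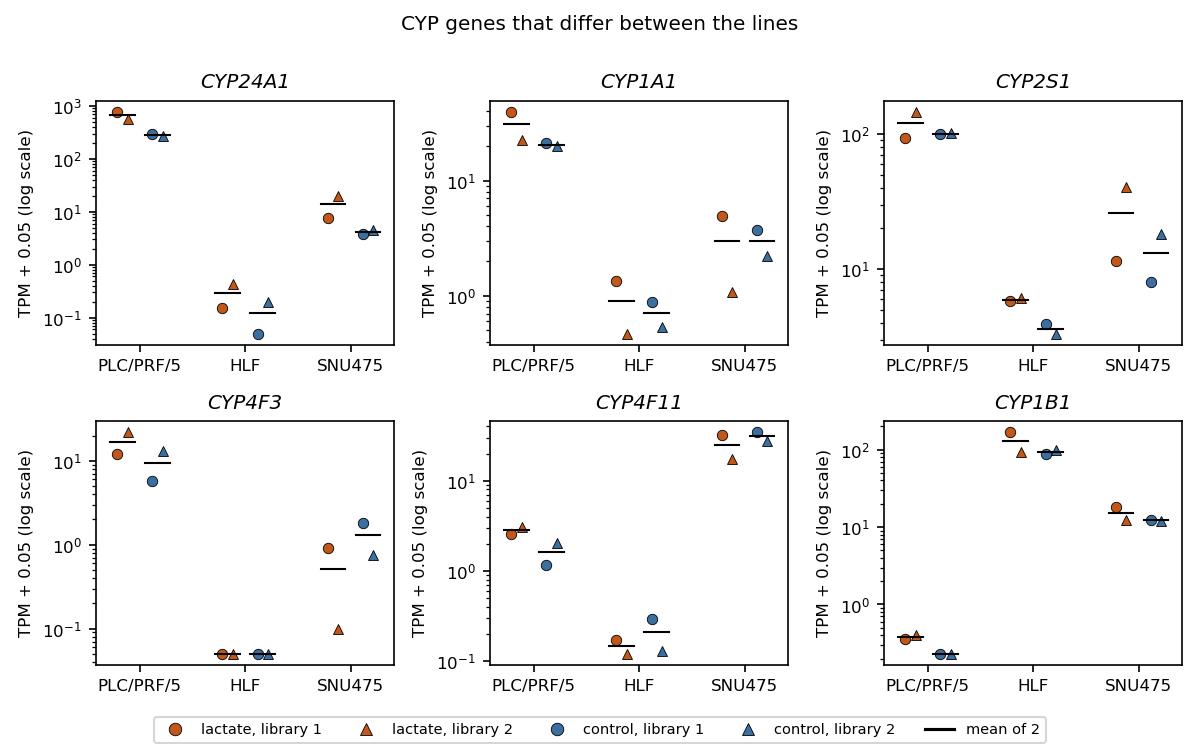
TPM plus 0.05 on a log scale in each library for 6 members, with lactate left of control in each line, circles for libraries numbered 1, triangles for those numbered 2 and bars for the mean of 2. CYP24A1, CYP1A1, CYP2S1 and CYP4F3 are highest in PLC/PRF/5, CYP4F11 in SNU475 and CYP1B1 in HLF.

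CYP4F enzymes hydroxylate fatty acids and eicosanoids at the end of the chain, and CYP4F3 inactivates leukotriene B4. Their 6 genes lie on chromosome 19 in the order CYP4F22, CYP4F8, CYP4F3, CYP4F12, CYP4F2 and CYP4F11, and of the 4 that passed 1 TPM in some group CYP4F11 differed from the others in its highest line. CYP4F3 had 5.68 and 12.9 TPM in untreated PLC/PRF/5, no counts in HLF and 1.78 and 0.7 TPM in SNU475. CYP4F11, in the same cluster, had 1.11 and 1.99 TPM in PLC/PRF/5, 0.24 and 0.08 TPM in HLF and 34.4 and 27.8 TPM in SNU475. CYP4F3 was thus highest in PLC/PRF/5 and CYP4F11 in SNU475, with no overlap between lines for either gene, while both were lowest in HLF.

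On the log2 scale the difference of PLC/PRF/5 from SNU475 was 2.55 ± 0.84 for CYP4F3 (adjusted p = 0.0301; lost without SNU475 control 2 at 0.124, without PLC/PRF/5 control 2 at 0.164 and in DESeq2 at 0.106) and -4.84 ± 0.40 for CYP4F11 (adjusted p = 2.88e-06). Against HLF, PLC/PRF/5 was at least 270-fold higher for CYP4F3 at the floor (adjusted p = 0.000557) and higher by 2.90 ± 0.48 on the log2 scale for CYP4F11 (adjusted p = 0.000552). HLF was lower than SNU475 by at least 45.2-fold for CYP4F3 (adjusted p = 0.00531) and at a log2 value of -7.74 ± 0.49 for CYP4F11 (adjusted p = 7.09e-07). CYP4F12 had 2.8 and 6.25 TPM in PLC/PRF/5, 0.12 and 0.19 TPM in HLF and 1.37 and 0.22 TPM in SNU475, and PLC/PRF/5 was higher than HLF by 4.98 ± 0.93 (adjusted p = 0.0012). HLF was lower in CYP4F12 than SNU475 at -2.98 ± 0.95 (adjusted p = 0.0276), lost without HLF control 1 (adjusted p = 0.0568), HLF control 2 (adjusted p = 0.16) or SNU475 control 1 (adjusted p = 0.342), in limma-voom (adjusted p = 0.0657) and with effective-length offsets (adjusted p = 0.0676). The difference of PLC/PRF/5 from SNU475 in CYP4F12, 2.001 ± 0.74 (adjusted p = 0.0422), was lost without SNU475 control 2 (1.27, adjusted p = 0.197), PLC/PRF/5 control 1 (adjusted p = 0.0558), control 2 (adjusted p = 0.229), lactate 1 (adjusted p = 0.0622) or lactate 2 (adjusted p = 0.0657), without both SNU475 libraries numbered 2 (adjusted p = 0.0849) and with only the libraries compared (adjusted p = 0.0683). CYP4F22, an enzyme of the skin lipid barrier, had 0.28 and 0.44 TPM in PLC/PRF/5, no counts in HLF and 0 and 0.19 TPM in SNU475. PLC/PRF/5 was at least 7.58-fold higher in CYP4F22 than HLF (adjusted p = 0.0351), a call lost without any 1 library of these 2 control groups or of PLC/PRF/5 lactate (adjusted p from 0.0512 to 0.131). CYP4F2 was not tested and CYP4F8 had no counts.

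The starts of CYP4F3 and CYP4F11 are shown because these related genes of 1 cluster were highest in different lines. The deposited expected counts of CYP4F11 and CYP4F12 were whole in all 12 libraries, and those of CYP4F2 and CYP4F3 in 10 of 12, within 0.07 of a whole number in the others. The windows are the 250 bases before the CYP4F3 start (chr19:15641062-15641311, plus strand) and before the second of the CYP4F11 starts (chr19:15934530-15934779, minus strand) on GRCh38.p14 from RefSeq. Capitals mark bases that are the same in a global alignment of both.
CYP4F3: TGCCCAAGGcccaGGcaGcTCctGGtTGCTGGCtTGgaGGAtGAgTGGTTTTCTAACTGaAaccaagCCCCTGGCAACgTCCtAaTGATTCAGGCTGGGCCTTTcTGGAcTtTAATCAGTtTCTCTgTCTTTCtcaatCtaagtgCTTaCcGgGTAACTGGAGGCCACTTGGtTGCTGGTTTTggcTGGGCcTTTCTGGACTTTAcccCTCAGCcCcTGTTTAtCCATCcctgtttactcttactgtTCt
CYP4F11: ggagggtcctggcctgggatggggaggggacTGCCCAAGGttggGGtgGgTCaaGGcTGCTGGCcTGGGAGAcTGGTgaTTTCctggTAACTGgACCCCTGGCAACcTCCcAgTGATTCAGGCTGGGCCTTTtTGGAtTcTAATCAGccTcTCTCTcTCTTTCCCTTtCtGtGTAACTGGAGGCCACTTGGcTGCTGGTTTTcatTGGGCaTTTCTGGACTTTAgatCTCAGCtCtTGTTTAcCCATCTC
The alignment matched 176 identical bases, 70.4% of the window, against 138 (55.2%) for the first CYP4F11 start. Neither window holds GCGTG or TATAA on either strand.

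Fatty acid hydroxylases outside that cluster had other line orders. CYP4V2, a fatty acid hydroxylase altered in a retinal dystrophy, was highest in HLF, with 0.99 and 0.95 TPM in untreated PLC/PRF/5, 5.43 and 6.5 TPM in HLF and 0.68 and 1.13 TPM in SNU475. PLC/PRF/5 was lower than HLF at -2.96 ± 0.51 (adjusted p = 0.000745), and HLF was higher than SNU475 by 2.74 ± 0.51 (adjusted p = 0.00139), both held under all 20 alternatives. CYP2U1, which hydroxylates long-chain fatty acids, was nearly level across the lines, with 2.86 and 3.41 TPM in PLC/PRF/5, 3.08 and 3.41 TPM in HLF and 3.73 and 3.59 TPM in SNU475, although PLC/PRF/5 was called lower than SNU475 at -0.75 ± 0.25 (adjusted p = 0.0274), which held under 14 of 20 alternatives and was lost without SNU475 control 2 (adjusted p = 0.133), PLC/PRF/5 control 1 (adjusted p = 0.16) or PLC/PRF/5 control 2 (adjusted p = 0.0802), without a filter on low counts (adjusted p = 0.129), with effective-length offsets (adjusted p = 0.0541) and without both SNU475 libraries numbered 2 (adjusted p = 0.0626).

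CYP2J2, an arachidonic acid epoxygenase, had 7.68 and 8.16 TPM in PLC/PRF/5, 0.41 and 0.27 TPM in HLF and 0.51 and 4.24 TPM in SNU475. PLC/PRF/5 was higher than HLF by 4.15 ± 0.91 (adjusted p = 0.00342). The lower value of HLF against SNU475, -3.07 ± 0.90 (adjusted p = 0.0187), came from SNU475 control 2 and was -0.61 without it (adjusted p = 0.575); it was also lost without HLF control 1 (adjusted p = 0.0625) or HLF control 2 (adjusted p = 0.126), without both SNU475 libraries numbered 2 (adjusted p = 0.379) and in limma-voom (adjusted p = 0.112).

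Of the bile acid and cholesterol enzymes, CYP27A1, the mitochondrial sterol 27-hydroxylase, alone passed 1 TPM. It had 14.7 and 18.7 TPM in untreated PLC/PRF/5, 15 and 11.6 TPM in HLF and 43.4 and 17.9 TPM in SNU475. PLC/PRF/5 was lower than SNU475 at -1.35 ± 0.35 (adjusted p = 0.00853), lost without SNU475 control 1 (-0.79, adjusted p = 0.0956) or PLC/PRF/5 control 1 (adjusted p = 0.0664), and HLF was lower than SNU475 at -1.30 ± 0.35 (adjusted p = 0.0128), lost without SNU475 control 1 (-0.75, adjusted p = 0.132) or HLF control 2 (-0.98, adjusted p = 0.109). In TPM the level of SNU475 control 2 lay beside those of PLC/PRF/5. CYP39A1, which hydroxylates 24-hydroxycholesterol, lay between 0.13 and 1.31 TPM in every library.

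Steroid hormone enzymes were scarce. CYP19A1, the aromatase that makes oestrogens, had 1.97 and 0.27 TPM in untreated PLC/PRF/5, no counts in HLF and 1.85 and 1.36 TPM in SNU475. HLF was lower by at least 13.3-fold than SNU475 at the floor (adjusted p = 0.00974), and PLC/PRF/5 was higher by at least 6.2-fold than HLF (adjusted p = 0.0224), lost without HLF control 1 (adjusted p = 0.09), HLF control 2 (adjusted p = 0.0795) or PLC/PRF/5 control 1 (adjusted p = 0.092). CYP21A2, the adrenal 21-hydroxylase, had 0.14 and 0 TPM in PLC/PRF/5, no counts in HLF and 1.23 and 0.09 TPM in SNU475, and its call in HLF against SNU475 (adjusted p = 0.0476) held under 8 of 19 alternatives. It was lost without any single library but SNU475 control 2, lactate 1 or lactate 2, with adjusted p = 0.282 without SNU475 control 1. CYP21A2 has a near-identical pseudogene and its reads are uncertain.

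By position in GENCODE v29 on GRCh38, 34 members lie in 9 clusters of genes whose starts are within 1 Mb of the next, and 10 of these 34 passed 1 TPM in some group. Of the 21 members outside clusters, 12 did. The chromosome 1 cluster of CYP4B1, CYP4A11, CYP4X1, CYP4Z1 and CYP4A22 had no counts at all, and in the CYP3A cluster on chromosome 7 and the CYP2C cluster on chromosome 10 a single gene passed, CYP3A5 and CYP2C18. On chromosome 19, CYP2B6 and CYP2S1 passed in a cluster of 6 where CYP2A6, CYP2A13 and CYP2F1 had no counts.

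With lactate, no member passed in any line in the edgeR test reported, on all 12 libraries with the count filter and no replicate block. This test called 0 of the 27 tested members in PLC/PRF/5, HLF and SNU475, where it called 0% of all 18355 genes, and 0 members for the mean of the 3 lines, where it called 0.42%, 0.305% higher and 0.114% lower. Other edgeR fits without the block did call members. With no count filter it called 1 of 41 in PLC/PRF/5, 3 in SNU475 and 3 for the mean, beside 0.586%, 1.29% and 2.87% of all genes. With only the libraries of PLC/PRF/5 it called 1 of 24 there, beside 3.7% of all genes. Leaving out a SNU475 library, which left a lone library in its group, also changed the calls. Without lactate 1, members were called in SNU475, for the mean and for the interaction. Without control 1 or lactate 2, members were called for the mean. In each of these leave-out fits the share of all genes called rose too, so the calls were not particular to the members. With the replicate block 1 member was called in SNU475, CYP24A1, beside 0.251% of all genes, and 1 for the mean, CYP20A1, beside 6.91%. At an unadjusted p under 0.05 there were 1, 3 and 4 members in PLC/PRF/5, HLF and SNU475 and 3 for the mean, against 5.92%, 6.28%, 11.6% and 15.8% of all genes. DESeq2 called 0, 0, 2 and 2 members in the same order, beside 91, 41, 274 and 977 of all genes, and limma-voom called no member in any of the 4. The interaction of lactate with line called 0 members and 0% of all genes, with 2 members and 3.51% of genes at an unadjusted p under 0.05; DESeq2 and limma-voom also called no member there.

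CYP20A1, an enzyme whose substrate is not known, came closest and was lower with lactate in each line. It had 12.2 and 9.21 TPM with lactate and 17.2 and 15.8 TPM in controls in PLC/PRF/5, 8.04 and 13.1 TPM against 20.6 and 15.8 TPM in HLF, and 8.41 and 7.60 TPM against 16.6 and 15.3 TPM in SNU475. Both lactate libraries lay below both controls in all 3 lines, in TPM and in CPM. This held for 1 of the 27 members (3.7%), near the 3.37% of all genes. No tested member lay above in all 3 lines, against 2.72% of genes. The mean effect was -0.76 ± 0.15 on the log2 scale (SE; adjusted p = 0.0505), with -0.30 ± 0.25 in PLC/PRF/5, -0.97 ± 0.25 in HLF and -0.995 ± 0.25 in SNU475 (adjusted p = 0.975, 0.621 and 0.276).

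The result for CYP20A1 lay at the threshold. With the replicate block the mean effect was -0.75 (adjusted p = 0.0125), and it passed in 7 of 19 alternatives, with adjusted p from 0.000213 in DESeq2 to 0.217. Among single libraries it passed without SNU475 control 1 (adjusted p = 0.0409), lactate 1 (adjusted p = 0.0118) or lactate 2 (adjusted p = 0.0353), and in SNU475 alone DESeq2 called it (-0.99, adjusted p = 0.0284). A difference between the 3 lines was not called by edgeR (interaction, adjusted p = 1).

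The bases before the first CYP20A1 start are shown because it was the member lower in every lactate library than in the controls of its line (chr2:203238768-203239017, plus strand, GRCh38.p14, from RefSeq). Capitals mark GCGTG on the minus strand, which the plus strand spells CACGC; it holds no TATAA.
CYP20A1: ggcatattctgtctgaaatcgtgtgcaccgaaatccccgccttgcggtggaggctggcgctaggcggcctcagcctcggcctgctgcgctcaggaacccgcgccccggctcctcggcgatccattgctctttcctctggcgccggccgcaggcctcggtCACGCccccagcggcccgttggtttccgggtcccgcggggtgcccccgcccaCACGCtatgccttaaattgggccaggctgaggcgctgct
The motif stands at 91 and 39 bases before the start, and a second annotated start of the gene has none in its window.

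CYP24A1 was the only member with an unadjusted p under 0.05 in PLC/PRF/5. It had 764 and 571 TPM with lactate and 299 and 272 TPM in controls in PLC/PRF/5, 7.62 and 19.8 TPM against 3.77 and 4.4 TPM in SNU475, and 0.1 and 0.39 TPM against 0 and 0.15 TPM in HLF. Lactate libraries lay above the controls in PLC/PRF/5 and SNU475, as they did for 28.5% and 16.2% of all genes. In HLF CYP24A1 was near absent at 8 counts against 5. The log2 change was 1.14 ± 0.46 in PLC/PRF/5 (adjusted p = 0.789), 1.96 ± 0.49 in SNU475 (adjusted p = 0.276) and 1.197 ± 0.52 for the mean (adjusted p = 0.295).

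Whether CYP24A1 passed with lactate depended on the fit, and most alternatives did not call it. It passed in 3 of 20 alternatives in PLC/PRF/5, 4 of 20 in SNU475 and 3 of 19 for the mean effect. Some of the fits where it passed follow. In PLC/PRF/5 the change was 1.12 with an adjusted p of 0.00876 when only the 4 libraries of that line were fitted, and 1.13 with 0.0319 without both SNU475 libraries numbered 2. In SNU475 it was 1.79 with the replicate block (adjusted p = 0.0311) and 1.97 in DESeq2 (adjusted p = 0.0116). It was 2.58 without SNU475 lactate 1, a fit that left a lone library and in which the share of all genes called rose too. For the mean effect it was 1.21 in DESeq2 (adjusted p = 0.0357) and 1.41 without SNU475 lactate 1. The lactate libraries of SNU475 differed from each other, with log2 ratios to the same-numbered control of 1.22 for number 1 and 2.29 for number 2.

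**Figure D4:**
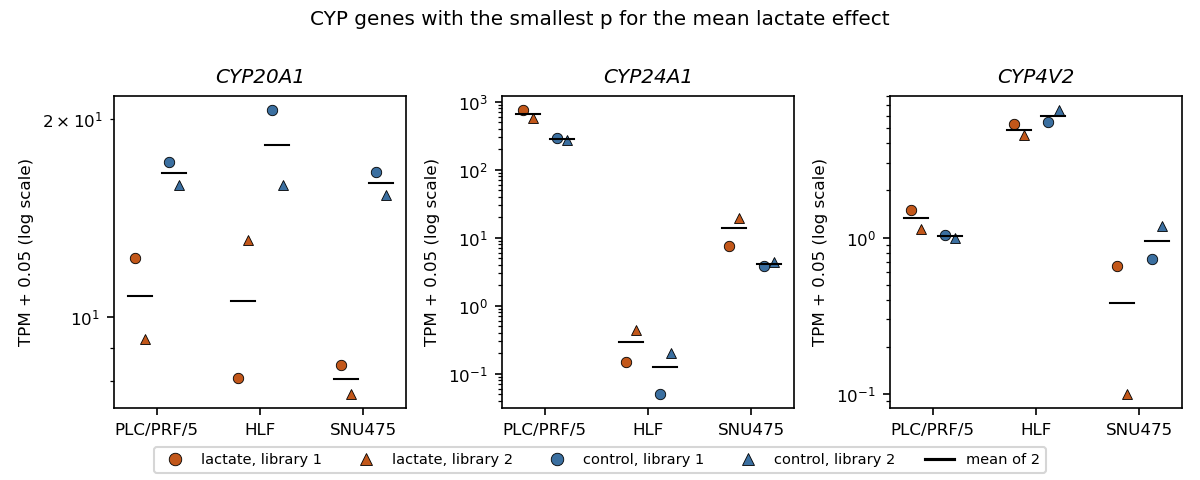
TPM plus 0.05 on a log scale in each library for the 3 members with the smallest p for the mean lactate effect, with lactate left of control in each line. CYP20A1 has both lactate libraries below both controls in the 3 lines, CYP24A1 has them above in PLC/PRF/5 and SNU475, and CYP4V2 has them below in HLF and SNU475 and above in PLC/PRF/5.

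CYP4V2 followed, with 0.61 and 0.05 TPM with lactate against 0.68 and 1.13 TPM in SNU475 controls, 5.25 and 4.45 TPM against 5.43 and 6.5 TPM in HLF, and 1.46 and 1.09 TPM against 0.99 and 0.95 TPM in PLC/PRF/5. In SNU475 the change was -1.79 ± 0.56 (adjusted p = 0.293), on 30 counts with lactate against 117 in controls. Without SNU475 lactate 1, where the share of all genes called rose too, it was -3.59. The mean over the lines was -0.67 ± 0.29 (adjusted p = 0.293), or -1.27 without SNU475 lactate 1. CYP19A1 had 0 and 0.33 TPM with lactate against 1.85 and 1.36 TPM in SNU475 controls, 2 counts against 36, a 15.8-fold ratio with a 95% counting interval of 4.06 to 135 (unadjusted p = 0.015, adjusted p = 0.312, edgeR).

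CYP3A5 and CYP27B1 leaned differently in the lines. CYP3A5 had 3.76 and 7.18 TPM with lactate against 1.72 and 3.72 TPM in PLC/PRF/5 controls, 0.38 and 0.21 TPM against 0.35 and 0.41 TPM in HLF, and 0.98 and 0.22 TPM against 0.7 and 0.74 TPM in SNU475. Its log2 changes were 0.71 ± 0.48, -1.35 ± 0.56 and -0.97 ± 0.53 in PLC/PRF/5, HLF and SNU475, and the interaction had an unadjusted p of 0.034 and an adjusted p of 1. CYP27B1 had 3.43 and 4.01 TPM with lactate against 3.75 and 2.58 TPM in PLC/PRF/5 controls, 0.45 and 0.72 TPM against 0.55 and 0.88 TPM in HLF, and 0.24 and 0.33 TPM against 0.33 and 0.29 TPM in SNU475. Its count in HLF was 13 with lactate against 38 in controls, a log2 change of -1.68 ± 0.54 (adjusted p = 0.734), with an interaction p of 0.0401 (adjusted p = 1). In both genes the HLF CPM did not overlap while the TPM did. With effective-length offsets the HLF change was -0.63 for CYP3A5 and -0.49 for CYP27B1, and no member had an unadjusted interaction p under 0.05.

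The members with the highest levels elsewhere did not pass the test with lactate. CYP1B1 had 168 and 94.5 TPM with lactate against 88.1 and 100.2 TPM in HLF controls, where the groups overlapped, and 18 and 12.4 TPM against 12.4 and 12 TPM in SNU475. CYP2S1 had 93.6 and 144 TPM with lactate against 99.8 and 101 TPM in PLC/PRF/5 controls, and 11.5 and 40.1 TPM against 8.04 and 18.2 TPM in SNU475. CYP1A1 had 39.3 and 22.5 TPM with lactate against 21 and 19.8 TPM in PLC/PRF/5 controls, with the first lactate library standing above the other 3. CYP27A1 overlapped in CPM between lactate and control in all 3 lines, with 46.7 and 22.5 TPM with lactate against 43.4 and 17.9 TPM in SNU475 controls. In HLF, CYP2B6 had 0 counts with lactate against 3 in controls and CYP2C18 0 against 2, too few for a fold. At the limit of 1 TPM, CYP26A1, CYP4F22 and CYP4V2 passed with lactate and not in controls in PLC/PRF/5, and CYP21A2 did in SNU475. CYP19A1 passed in controls only in PLC/PRF/5 and SNU475, as did CYP26A1, CYP26B1 and CYP4F3 in SNU475. CYP2D7, a tested member that shares reads with CYP2D6, stayed at or below 0.73 TPM in every library.

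In PLC/PRF/5 most tested members leaned upwards without passing the test. Of the 27, 23 had a positive log2 change there, with a median of 0.48 against 0.03 over all genes, and 13 (48.1%) had both lactate libraries above both controls and 1 (3.7%) below, against 28.5% and 21.8% of all genes. They included CYP4F11, with 2.49 and 3.02 TPM against 1.11 and 1.99 TPM (log2 0.73 ± 0.37, adjusted p = 0.863), CYP2R1, with 26.8 and 21.8 TPM against 19.4 and 16.5 TPM (0.48 ± 0.26, adjusted p = 0.907), and CYP4F22, with 1.22 and 1.06 TPM against 0.28 and 0.44 TPM (1.59 ± 1.14, adjusted p = 0.959). A member can have passed the filter through its PLC/PRF/5 lactate libraries alone, so these counts are a description. In HLF 0 lay above and 6 (22.2%) below, against 19.6% and 19.9% of all genes, and in SNU475 2 (7.41%) lay above and 7 (25.9%) below, against 16.2% and 15.4%. Hepatocyte markers in PLC/PRF/5 summed to 4466 to 7026 TPM with lactate and 3139 to 5066 TPM in controls; their part in the result was not tested.

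**Figure D5:**
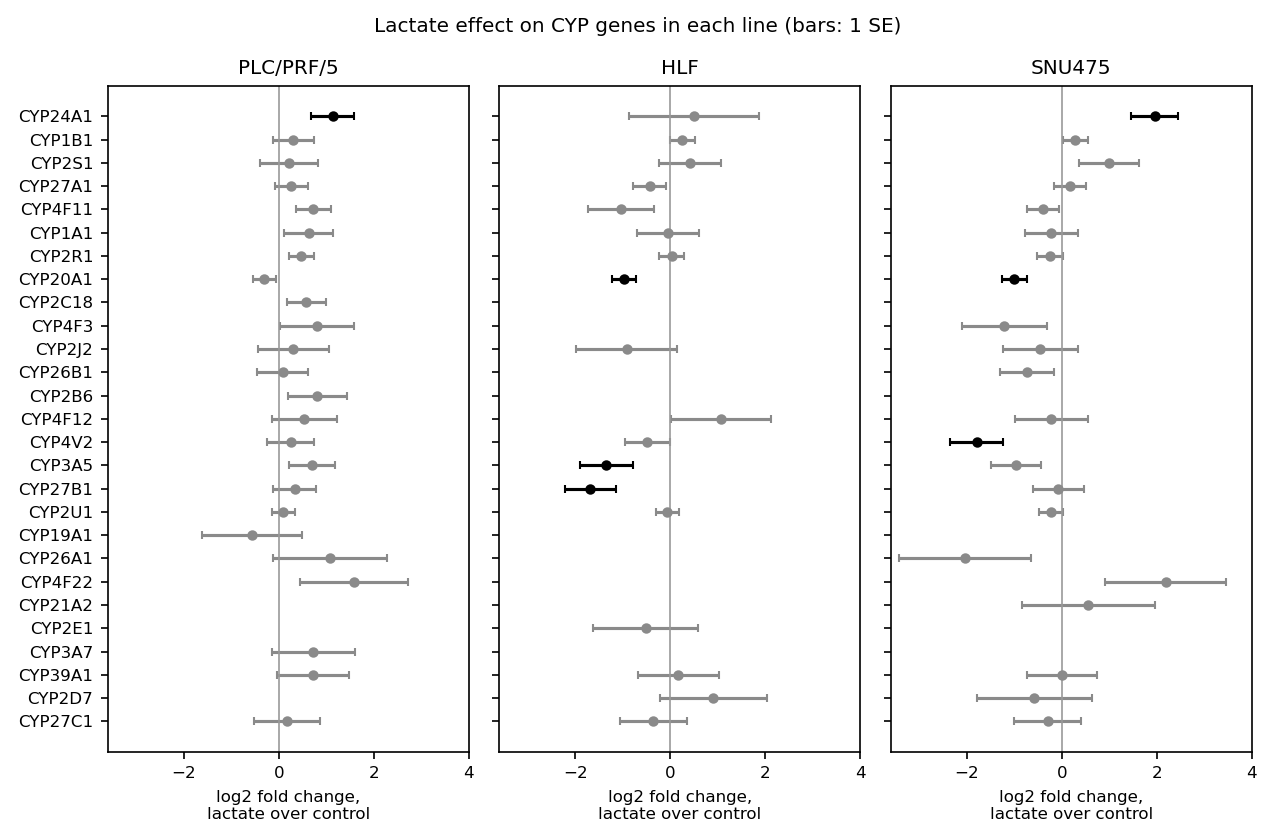
Log2 fold change of lactate over control for each tested member with more than 3 counts in both groups of a line; bars are 1 SE, black marks an unadjusted p under 0.05 and grey all others. Most points of PLC/PRF/5 lie right of 0, CYP20A1 lies left in the 3 lines, and no point passed the adjusted threshold.

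Some genes that serve the P450 enzymes were called between lines. Among all tested genes, 43% were called for PLC/PRF/5 against HLF, 48.7% for PLC/PRF/5 against SNU475 and 39% for HLF against SNU475. Of 9 electron donors and haem partners, 2 were higher and 3 lower in untreated PLC/PRF/5 than in HLF, 1 higher and 5 lower than in SNU475, and 1 higher and 4 lower in HLF than in SNU475. POR, the reductase of microsomal P450 enzymes, had 84.7 and 86.8 TPM in PLC/PRF/5, 107 and 77.8 TPM in HLF and 240 and 172 TPM in SNU475, lower in PLC/PRF/5 than in SNU475 at -1.56 ± 0.27 (adjusted p = 0.000716). FDX1, the ferredoxin of mitochondrial P450 enzymes such as CYP24A1 and CYP27A1, had 21.3 and 20 TPM, 9.01 and 13.2 TPM and 28.2 and 20.5 TPM in the controls of PLC/PRF/5, HLF and SNU475. Of 8 haem synthesis genes, 2 were higher in PLC/PRF/5 than in HLF, 1 higher than in SNU475 and 2 higher in HLF than in SNU475. None was lower, and the share of haem synthesis genes called was below that of all genes in each comparison. ALAS1, the first step of haem synthesis in liver, had 78.4 and 83.2 TPM in PLC/PRF/5, 48.8 and 66.7 TPM in HLF and 55.8 and 41.7 TPM in SNU475.

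Of 26 regulators, 24 were tested, and untreated PLC/PRF/5 had 17 higher and 4 lower than HLF and 13 higher and 6 lower than SNU475. HLF had 4 higher and 8 lower than SNU475. The shares of all tested genes called in these comparisons were 43%, 48.7% and 39%. HNF4A, a master regulator of hepatocyte genes, had 52.7 and 63.4 TPM in PLC/PRF/5, none in HLF and 0.27 and 0.51 TPM in SNU475, 6.60 ± 0.53 higher on the log2 scale than in SNU475 (adjusted p = 9.28e-06). CEBPA had 12.6 and 14.8 TPM, 0.38 and 0.31 TPM and 0.57 and 0.31 TPM in the controls of PLC/PRF/5, HLF and SNU475. The drug-sensing receptors PXR (NR1I2) and CAR (NR1I3), which switch on CYP3A4 and CYP2B6 in liver, stayed at or below 0.28 and 0.68 TPM in every library. Of the 3 AHR targets outside the family, 2 were higher in PLC/PRF/5 than in HLF, 2 lower than in SNU475, and 2 lower in HLF than in SNU475.

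With lactate none of these genes was called in any line or for the mean, in the test and lists above. The smallest p for the mean was that of PPARA, a fatty acid sensing receptor that switches on CYP4A genes, with 6.87 and 10 TPM with lactate against 6.79 and 8.76 TPM in PLC/PRF/5 controls, 4.63 and 1.74 TPM against 0.73 and 1.18 TPM in HLF, and 3.15 and 3.65 TPM against 2.07 and 2.75 TPM in SNU475 (log2 0.73 ± 0.17, adjusted p = 0.0802). FDX2, a ferredoxin of iron-sulfur cluster assembly, had 45 and 45.3 TPM with lactate against 54.1 and 54 TPM in PLC/PRF/5 controls, 26.2 and 32.8 TPM against 42.7 and 42.9 TPM in HLF, and 21.7 and 17 TPM against 27.6 and 26.6 TPM in SNU475 (-0.52 ± 0.13, adjusted p = 0.101). In TPM every lactate library of FDX2 lay below both controls of its line, as for CYP20A1. In CPM 3.37% of all genes lay so in all 3 lines.

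Of the 3 enzymes of the superfamily outside the naming rule, CYP51A1 had 115 and 134 TPM in untreated PLC/PRF/5, 57.8 and 54.5 TPM in HLF and 56.8 and 68.1 TPM in SNU475, higher in PLC/PRF/5 than in HLF by 0.82 ± 0.27 (adjusted p = 0.0313). Thromboxane synthase (TBXAS1) was at 0 in PLC/PRF/5 and had 1.44 and 3.92 TPM in HLF and 9.72 and 10.3 TPM in SNU475. Prostacyclin synthase (PTGIS) was called higher in SNU475 than in both other lines, at 0 and 0 TPM in PLC/PRF/5, 0.02 and 0 TPM in HLF and 1.32 and 0.48 TPM in SNU475 controls.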

How the data were processed

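RNA of 12 libraries was sequenced. Per the file headers, each deposited table holds RSEM expected counts (estimated counts that need not be whole), TPM and an effective length per gene. Tools listed in the submitters' processing notes, with no version, are STAR, RSEM, FastQC and DESeq2; the notes also list the mouse builds GRCm38 and mm10, although all 62757 identifiers are human; the human build is not given in the sources used here. Counts were rounded, 47 pseudoautosomal Y rows were added to their X copies, and genes were filtered by group (filterByExpr), leaving 18355. edgeR 4.0.16 under R 4.3.3 gave the quasi-likelihood test, fitted to 6 groups with TMM factors, after a check on simulated data, with Benjamini-Hochberg adjustment over all genes. TPM values deposited by the authors were used for levels only. Errors are standard errors of the fit.

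Members, lists and tests were chosen with earlier results of these data known. Members with a group mean of at least 1 TPM, members called, and the 5 with the smallest p for lactate in each line and for the mean were named; of other lists, a few genes with the smallest p or a known role were named, those of a known role chosen after their values were seen. Deviations of same-numbered libraries correlated at 0.101, 0.446 and 0.132 in HLF, SNU475 and PLC/PRF/5, weakly in HLF and PLC/PRF/5. The numbers in the titles were taken as pairs only in the replicate block and in ratios of same-numbered libraries. No label says what they share, and the PLC/PRF/5 libraries numbered 2 carry another number in their deposited names. The fit without the block, with 6 residual degrees of freedom against 3 with it, is the one reported. Alternatives were DESeq2 1.42.0, limma-voom (limma 3.58.1), RLE factors, no count filter, effective-length offsets, the replicate block, subsets of libraries, and other TPM limits. Sequences are RefSeq's, on GRCh38.p14, and the alignment used Biopython.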

Additional observations from a re-analysis of the deposited data

How the results depend on the processing

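The numbers of members called depended on the fit, both for lactate and for the untreated lines. Lactate in SNU475 called 2 members in DESeq2 (274 of all genes), 3 of 41 without a filter on low counts (414 of 32081 genes) and 1 with the replicate block (46 genes), against 0 in the fit reported. When single libraries were left out, lactate in SNU475 called members only without SNU475 lactate 1, where the share of all genes called rose too. Lactate in PLC/PRF/5 called 1 without a filter on low counts (188 genes), 1 without both SNU475 libraries numbered 2 (137 genes) and 1 when only the libraries compared were fitted (569 genes), and 0 to 0 in the leave-one-out fits. The mean effect called 2 in DESeq2 (977 genes), 3 without a filter (922 genes) and 1 with the replicate block (1268 genes). In fits that left a lone library in a group, the mean called members only in some that left out SNU475 libraries. The interaction did so only without SNU475 lactate 1. The share of all genes called rose too in the fits that called members. Lactate in HLF called 0 in every alternative run. The untreated comparisons called 12 to 18 members (PLC/PRF/5 against HLF), 9 to 17 (PLC/PRF/5 against SNU475) and 8 to 17 (HLF against SNU475) when single libraries were left out, a lone library being assumed to vary like the other groups. The lowest of these were 9 without PLC/PRF/5 control 2 and, for HLF against SNU475, 9 without HLF control 1 and 8 without HLF control 2. In the full fit these counts were 18, 15 and 15. With the replicate block they were 18, 16 and 15, and the block changed no other count. The HLF count of members at 1 TPM was 7, and 11 at a limit of 0.5 TPM. In untreated SNU475, CYP4V2, CYP4F12, CYP3A5, CYP21A2 and CYP39A1 averaged between these limits, as did CYP4V2 and CYP26A1 in untreated PLC/PRF/5. The lower limit thus adds more members in SNU475 than in PLC/PRF/5. Of 48 single calls between untreated lines, 26 held under every alternative run and none changed sign. The cause of these shifts was not tested. With 2 libraries a group the spread rests on 6 residual degrees of freedom, and the 28 members with too few counts to test cannot be compared at this depth.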

Other observations

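Other enzymes of drug metabolism, which conjugate or hydrolyse what P450 enzymes oxidise, had their own line pattern. Of 23 such genes, 18 were tested: untreated PLC/PRF/5 had 10 higher and 0 lower than HLF (edgeR quasi-likelihood test), and 8 higher and 8 lower than SNU475, and HLF had 1 higher and 9 lower than SNU475. The background shares of these comparisons are those given for the P450 genes. SULT1E1, the oestrogen sulfotransferase, had 12.7 and 22.2 TPM in PLC/PRF/5, 0.08 and 0 TPM in HLF and none in SNU475. UGT2B7, a glucuronosyltransferase, had 11.2 and 12.5 TPM in PLC/PRF/5, 4.41 and 5.79 TPM in HLF and 0.08 and 0 TPM in SNU475.

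Several of these genes were highest in SNU475. CES1, the liver carboxylesterase, had 0.1 and 0.65 TPM in PLC/PRF/5, 1.18 and 0.39 TPM in HLF and 347 and 170 TPM in SNU475, lower in PLC/PRF/5 than in SNU475 at -10.12 ± 0.57 on the log2 scale (adjusted p = 1.93e-07). EPHX1, the microsomal epoxide hydrolase, had 47.5 and 55.2 TPM in PLC/PRF/5, 59.3 and 43.8 TPM in HLF and 1027 and 522 TPM in SNU475. With lactate 0 of the 18 were called in any line or for the mean; the smallest p for the mean was that of the sulfotransferase SULT1A1 (0.99 ± 0.32, adjusted p = 0.159).

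Among the markers of cell types, 5 epithelial markers summed to 5536 to 6140 TPM in the controls of PLC/PRF/5, 4488 to 4542 TPM in HLF and 3319 to 6965 TPM in SNU475. The 6 mesenchymal markers summed to 1391 to 1540, 4472 to 4682 and 4386 to 4822 TPM, the 3 cholangiocyte markers to 36.3 to 44.4, 27 to 38.8 and 10.2 to 21.9 TPM, and the 4 endothelial markers to 0.66 to 1.25, 0.32 to 0.33 and 0.12 to 0.25 TPM in the same order.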
